A study of Mus musculus with 31 samples.

Results

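The 10 genes described here belong to the MHC class I presentation pathway and were measured in mouse Ly6C-high monocytes. They are the heavy chain genes H2-K1, H2-D1, H2-Q4 and H2-T23, the light chain gene B2m, the peptide transport and loading genes Tap1, Tap2 and Tapbp, the peptide trimming gene Erap1 and the regulator gene Nlrc5. The members are the 10 rows with these symbols among the 24411 entries of the deposited count table, and all 10 passed the filter on low counts, as did 12337 entries in all. The rule uses no measured value, but the pathway was picked for description with earlier results of these data known.

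The RNA-seq data comprise 9 libraries of Ly6C-high monocytes from C57BL/6J mice, with 3 libraries in each of 3 groups. Healthy blood monocytes came from mice without a tumor. LLC blood and LLC tumor monocytes came from the blood and from the tumors of mice that carried subcutaneous LLC tumors, grown from the mouse cell line of Lewis lung carcinoma. All were sorted as CD11b+, Ly6G-, Ly6Chi and MHC-II-. The labels give no age, sex or batch and do not say whether the libraries of a group came from separate or pooled mice, or whether LLC blood and LLC tumor came from the same mice. The p-values therefore measure the spread between these libraries, which may be technical. The column heads of the blood libraries hold the letters BM, and they were read as blood because the sample titles say blood. The other 22 of the 31 samples (ATAC-seq, CUT&Run and CUT&Tag) were not analysed here.

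As background, a class I molecule is a heavy chain bound to beta-2-microglobulin (the product of B2m) and to a short peptide, and it is shown on the cell surface to CD8 T cells and NK cells. Proteasomes cut the peptides in the cytosol, the transporter made of Tap1 and Tap2 moves them into the endoplasmic reticulum, Erap1 trims them there, and tapasin (the product of Tapbp) holds empty class I molecules at the transporter while they are loaded. Interferon-gamma raises most of these genes, and Nlrc5 is a transactivator that acts at class I promoters together with factors bound to a shared set of promoter elements. Monocytes are known to carry class I on their surface, and they can become antigen-presenting cells in tissue.

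Of the members, 7 lie on chromosome 17 and 3 on other chromosomes (GRCm38.p6, RefSeq gene models, the same assembly as the mm10 build of the submitters' processing notes). H2-K1 (ENSMUSG00000061232) spans chr17:33996012-34000619, H2-D1 (ENSMUSG00000073411) chr17:35263094-35267497, H2-Q4 (ENSMUSG00000035929) chr17:35379617-35384674 and H2-T23 (ENSMUSG00000067212) chr17:36029977-36032701. Tapbp (ENSMUSG00000024308) spans chr17:33919478-33929290, Tap1 (ENSMUSG00000037321) chr17:34187556-34197225 and Tap2 (ENSMUSG00000024339) chr17:34204479-34216321. B2m (ENSMUSG00000060802) lies at chr2:122147687-122153082, Erap1 (ENSMUSG00000021583) at chr13:74639573-74693205 and Nlrc5 (ENSMUSG00000074151) at chr8:94434335-94527272.

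The promoters of 5 members are shown because these members gave the different patterns described further on: H2-K1 and B2m were lower in both LLC groups than in healthy blood, H2-Q4 was lower in LLC blood than in the other groups, H2-T23 was lowest in LLC tumor, and Erap1 was higher in LLC blood. Each line runs 5′ to 3′ on the gene's strand from 250 bases before the annotated start to 30 bases from it (RefSeq, GRCm38.p6). The H2-K1 and Erap1 windows lie wholly inside the gene spans given above, so their start sites are downstream of the first base of the span. Capitals mark matches, on either strand, to 4 short motifs: CCAAT (the core of the Y box), TGACG (the core of the X2 box and of cyclic AMP response elements), TTTCNNTTC (an interferon response element) and a kappaB element (GGG, any 2 bases, T, any 2 bases, CC).
H2-K1, chr17:34000318-34000597, minus strand: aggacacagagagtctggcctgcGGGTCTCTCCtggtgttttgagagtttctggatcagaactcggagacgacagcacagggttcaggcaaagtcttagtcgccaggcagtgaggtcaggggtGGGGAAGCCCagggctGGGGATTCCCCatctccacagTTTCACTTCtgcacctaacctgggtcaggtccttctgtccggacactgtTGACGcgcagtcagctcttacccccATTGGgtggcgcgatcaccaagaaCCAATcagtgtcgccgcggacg
H2-Q4, chr17:35379367-35379646, plus strand: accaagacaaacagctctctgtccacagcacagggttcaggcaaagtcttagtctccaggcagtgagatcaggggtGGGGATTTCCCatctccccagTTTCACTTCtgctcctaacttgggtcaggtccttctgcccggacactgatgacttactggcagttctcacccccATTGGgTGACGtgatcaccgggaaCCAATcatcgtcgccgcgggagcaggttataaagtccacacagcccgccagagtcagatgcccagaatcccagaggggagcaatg
H2-T23, chr17:36032672-36032951, minus strand: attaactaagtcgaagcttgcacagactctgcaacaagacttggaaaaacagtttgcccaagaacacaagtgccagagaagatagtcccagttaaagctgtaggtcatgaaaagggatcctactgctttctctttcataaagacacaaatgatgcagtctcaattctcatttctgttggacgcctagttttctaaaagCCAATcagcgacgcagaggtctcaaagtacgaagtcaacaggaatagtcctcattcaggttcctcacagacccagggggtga
B2m, chr2:122147437-122147716, plus strand: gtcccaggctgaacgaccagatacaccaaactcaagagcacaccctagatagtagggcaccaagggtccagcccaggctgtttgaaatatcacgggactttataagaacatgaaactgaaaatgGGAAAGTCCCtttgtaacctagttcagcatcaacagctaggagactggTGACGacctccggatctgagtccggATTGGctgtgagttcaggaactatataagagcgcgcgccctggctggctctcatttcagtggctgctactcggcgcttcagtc
Erap1, chr13:74639603-74639882, plus strand: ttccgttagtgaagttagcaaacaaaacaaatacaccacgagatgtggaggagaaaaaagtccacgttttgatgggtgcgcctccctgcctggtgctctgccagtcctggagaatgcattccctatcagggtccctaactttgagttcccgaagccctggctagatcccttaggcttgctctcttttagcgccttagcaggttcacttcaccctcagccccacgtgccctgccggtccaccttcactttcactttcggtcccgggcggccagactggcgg

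RefSeq promoter windows of 300 bases, 250 before the start and 50 from it, matched 8 of the 10 members, and Tap2 and Nlrc5 had none in the table used. For H2-K1 the table holds 2 windows, and the first was used. CCAAT was found in 7 of the 8 windows, all but that of Erap1, and in 37.4% of all 32851 windows of that length. TGACG was found in 5 (H2-K1, H2-D1, H2-Q4, B2m and Tap1) and in 20.8% of all windows. The kappaB element was found in 4 (H2-K1, H2-D1, H2-Q4 and B2m) and in 18.4% of all windows. TTTCNNTTC was found in 3 (H2-K1, H2-D1 and H2-Q4) and in 7.52% of all windows. A longer form, with an additional T before the last C, was not searched and is not marked. The lines of B2m, H2-T23 and Erap1 printed above hold this longer form on 1 strand. A window without a TTTCNNTTC match is therefore not shown to lack an interferon response element. In H2-K1, H2-D1 and H2-Q4 the TTTCNNTTC match lay 74 bases before the next ATTGG, the reverse complement of CCAAT. The distance from TGACG to the next ATTGG was 25 bases in H2-K1, H2-D1 and B2m, while the TGACG of H2-Q4 that precedes the start came after its ATTGG. Matches of the kappaB pattern overlap one another in H2-K1, H2-D1 and H2-Q4, and a match describes letters, not binding.

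**Figure D1:**
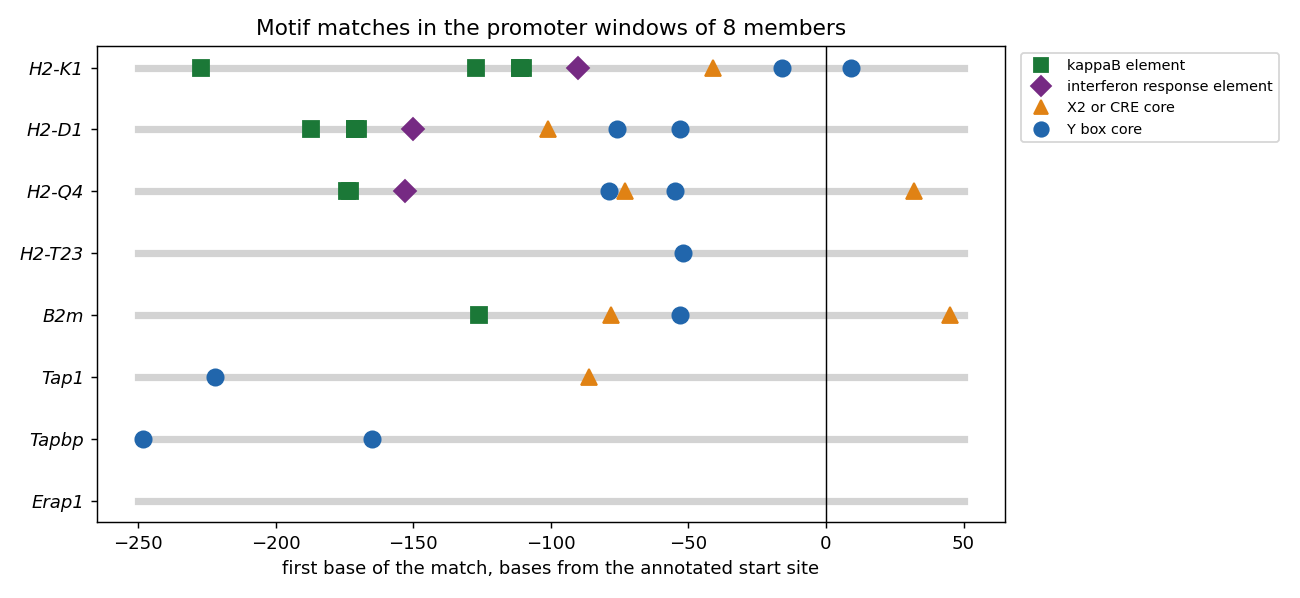
Positions of the 4 motifs in the 300-base promoter windows of 8 members. The x axis is the distance in bases from the annotated start site to the first base of a match, and each grey bar is 1 window. H2-K1, H2-D1 and H2-Q4 match all 4 patterns as searched, and Erap1 matches none of them. The longer form of the interferon response element, which the Erap1 window holds, was not searched and is not drawn.

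Total counts per library ranged from 10457492 to 20706412, and log2 values of libraries of the same group correlated with r between 0.967 and 0.997 across genes. Levels are given as normalised CPM, the CPM of a library total scaled by its TMM factor, and they are not divided by gene length. These factors were 1.03 to 1.07 in the blood libraries, 0.999 in LLC tumor 2 and 0.968 in LLC tumor 3, but 0.798 in LLC tumor 1. On this scale LLC tumor 1 had the highest level of all 10 members among the tumor libraries, so tumor results that change without it are also given without it. By CPM of the library totals alone it was below LLC tumor 3 for Tap2 and the lowest tumor library for Erap1 and Nlrc5. Monocyte markers were present in all libraries, but their level differed between the groups. The summed level of 9 monocyte markers was 36119 to 40185 CPM in healthy blood, 26229 to 29774 CPM in LLC blood and 15760 to 24486 CPM in LLC tumor. Markers of other cells were not equal between the groups, and their values stand beside the results.

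In LLC blood against healthy blood, 6 members fell, 1 rose and 3 did not pass the test (edgeR's quasi-likelihood test, Benjamini-Hochberg adjusted p under 0.05 over all 12337 genes, hereafter called). H2-K1, H2-D1, H2-Q4, H2-T23, B2m and Tap2 fell, Erap1 rose, and Tap1, Tapbp and Nlrc5 were not called. The median log2 fold change of the members was -0.50, against -0.01 over all genes tested. Of all genes tested, 23.6% were called in this comparison, 9.61% lower and 14.0% higher. Counted by level, 8 members lay lower in every LLC blood library than in any healthy library, Erap1 lay higher, and Nlrc5 overlapped. Such a separation was common, since 51.9% of all genes showed it in either direction, 26.1% lower and 25.7% higher.

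In LLC tumor against LLC blood, 3 members fell (H2-T23, Tapbp and Nlrc5), 1 rose (H2-Q4) and 6 were not called. The median of the members was -0.24, against -0.03 over all genes, and 61.3% of all genes were called, 31.7% lower and 29.6% higher. The members' share of calls was therefore below that of all genes. The 4 called members were also those whose tumor and LLC blood libraries did not overlap, as in 65.9% of all genes (34.5% lower and 31.4% higher). In LLC tumor against healthy blood, 8 members fell, Erap1 rose and H2-Q4 was not called, with a median of -0.81 against -0.0025 over all genes. Of all genes 66.5% were called in that comparison, 33.0% lower and 33.5% higher. The 9 called members did not overlap between those groups, as was the case for 69.8% of all genes, 35.3% lower and 34.4% higher. The comparisons share libraries (the LLC blood libraries enter the first and the second, the healthy ones the first and the third), so their values for 1 gene are not independent.

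**Figure D2:**
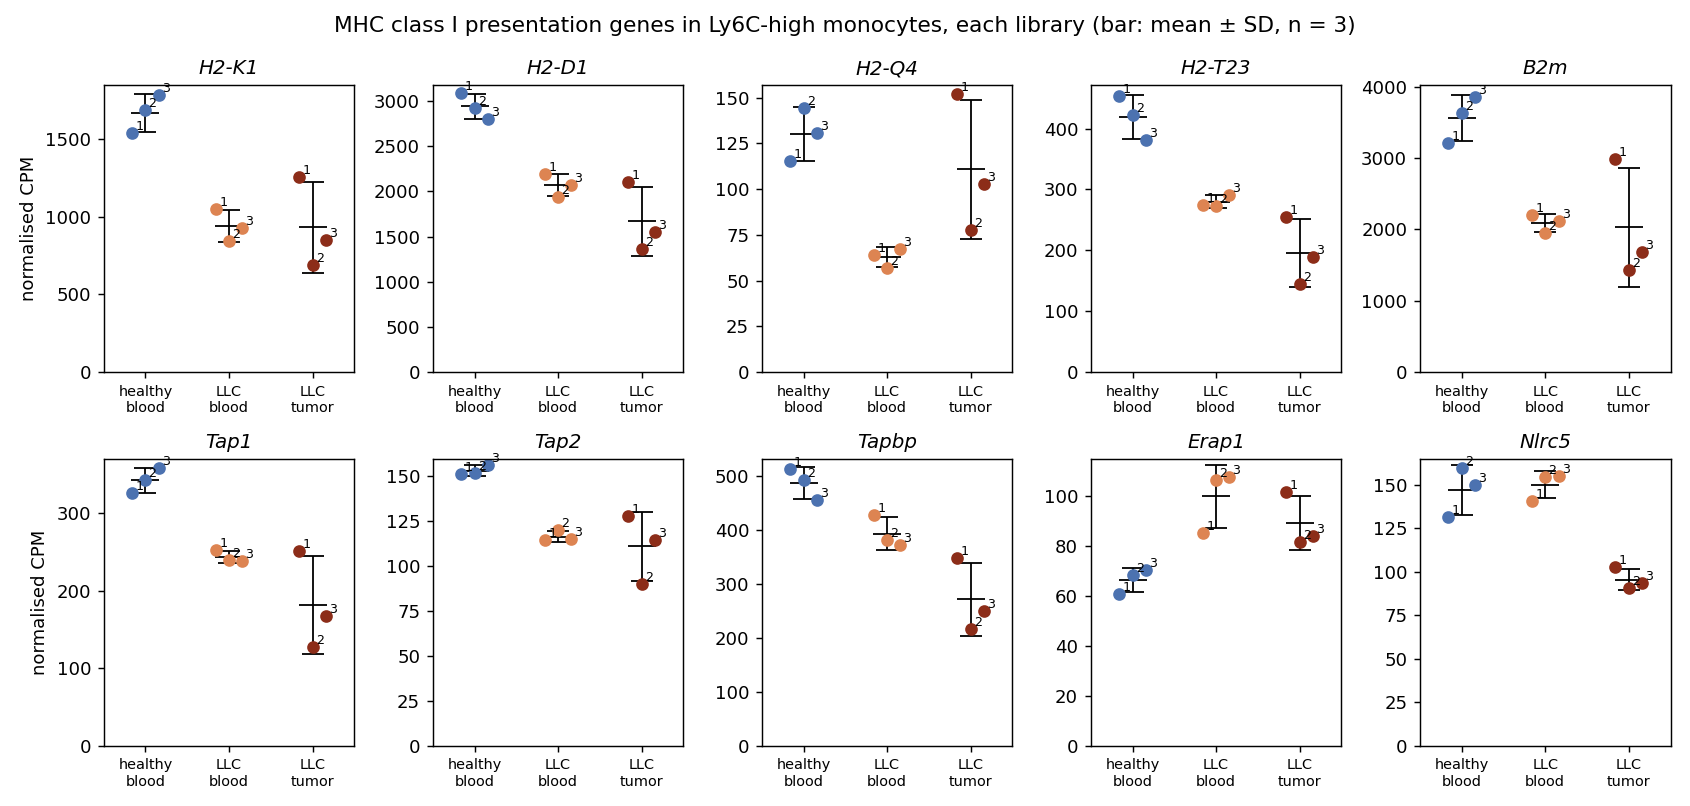
Levels of the 10 members in each library. The y axis of each panel is normalised CPM and starts at 0, points are single libraries with their replicate number, and bars are the mean ± SD of 3 libraries. LLC tumor 1 is the highest tumor library in all 10 panels, and for H2-Q4 the tumor libraries lie above all LLC blood libraries, with 1 above and 2 below the healthy ones.

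H2-K1 encodes the classical heavy chain H-2K. Its level was 1541, 1686 and 1785 CPM in healthy blood, 1051, 848 and 926 CPM in LLC blood and, from LLC tumors, 1260, 690 and 850 CPM. All 6 libraries of tumor-bearing mice lay below the lowest healthy library, and the tumor libraries spanned the LLC blood libraries. H2-K1 fell in LLC blood (log2 fold change -0.83 ± 0.20 SE, adjusted p = 0.0171). The difference between LLC tumor and LLC blood was -0.01 ± 0.20 (adjusted p = 0.961), and without LLC tumor 1 it was not called either.

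H2-D1 encodes the classical heavy chain H-2D. Its level was 3088, 2928 and 2805 CPM in healthy blood, 2195, 1941 and 2076 CPM in LLC blood and, from LLC tumors, 2099, 1360 and 1547 CPM. The LLC blood libraries lay below all healthy ones, and LLC tumor 1 lay within the LLC blood range while the other tumor libraries lay below it. H2-D1 fell in LLC blood (-0.51 ± 0.16, adjusted p = 0.0462). LLC tumor against LLC blood gave -0.31 ± 0.16 (adjusted p = 0.115), but without LLC tumor 1 the value was -0.49 and was called (adjusted p = 0.000882).

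H2-Q4 encodes a heavy chain of the Qa region. Its level was 115.1, 144.4 and 130.8 CPM in healthy blood, 64.1, 56.9 and 67.4 CPM in LLC blood and, from LLC tumors, 152, 77.5 and 103 CPM. Every LLC blood library was low, and the tumor libraries lay above them, with 1 above and 2 below the healthy ones. H2-Q4 fell in LLC blood (-1.05 ± 0.21, adjusted p = 0.00718), the lowest fold change among the members. It rose in LLC tumor against LLC blood (0.82 ± 0.21, adjusted p = 0.00759), and both calls held in all 19 alternative settings. Without LLC tumor 1 the rise was 0.55, and LLC tumor against healthy blood then gave -0.55 and was called (adjusted p = 0.00432), where with it the value was -0.23 ± 0.21 (adjusted p = 0.343).

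H2-T23 encodes the heavy chain Qa-1, the ligand of the inhibitory receptor NKG2A. Its level was 454, 423 and 381 CPM in healthy blood, 275, 274 and 292 CPM in LLC blood and, from LLC tumors, 255, 145 and 189 CPM. The 3 groups did not overlap, in the order healthy blood, LLC blood, LLC tumor. H2-T23 fell in LLC blood (-0.58 ± 0.17, adjusted p = 0.0398) and was lower again in LLC tumor than in LLC blood (-0.52 ± 0.18, adjusted p = 0.0281). It had the lowest fold change of the members in LLC tumor against healthy blood (-1.10 ± 0.18, adjusted p = 0.000448).

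The 4 heavy chain genes were also compared by their shares of their own summed CPM, which do not change with the scaling of a library. These shares are of counts, not per length. H2-Q4 made up 2.21%, 2.79% and 2.56% in healthy blood, 1.79%, 1.83% and 2.00% in LLC blood and, from LLC tumors, 4.04%, 3.41% and 3.83%. The groups did not overlap, with a mean of 3.76% ± 0.32 (SD, n = 3) in LLC tumor and 1.87% ± 0.12 in LLC blood. H2-T23 made up 8.12% ± 0.64 in healthy blood, 8.37% ± 0.61 in LLC blood and 6.72% ± 0.33 in LLC tumor, where only the tumor libraries (6.37% to 7.01%) lay apart from the others (7.46% to 8.77%). No test was run on these shares. The counts of all 4 heavy chain genes were not whole numbers in 9 of 9 libraries, as is the case where reads are divided among similar genes, so a share of the reads of 1 heavy chain gene may come from another.

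B2m encodes the light chain of all class I molecules of this kind. Its level was 3210, 3636 and 3853 CPM in healthy blood, 2205, 1949 and 2118 CPM in LLC blood and, from LLC tumors, 2983, 1425 and 1690 CPM. The LLC blood libraries lay below the healthy ones, and LLC tumor 1 lay above all LLC blood libraries while the other tumor libraries lay below them. B2m fell in LLC blood (-0.77 ± 0.24, adjusted p = 0.0478). LLC tumor against LLC blood gave -0.04 ± 0.24 (adjusted p = 0.896), and without LLC tumor 1 the value was -0.40 and was called (adjusted p = 0.00641). B2m counts were whole numbers in all 9 libraries, so no division of shared reads is seen in its values.

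Tap1 encodes a subunit of the peptide transporter. Its level was 326, 342 and 358 CPM in healthy blood, 252, 239 and 238 CPM in LLC blood and, from LLC tumors, 251, 127 and 167 CPM. Each LLC blood library lay below each healthy one, but the fit gave -0.49 ± 0.20 with an adjusted p of 0.104, which is not called. In a fit of the 6 blood libraries alone the value was -0.50 and was called (adjusted p = 0.000460), and without LLC tumor 1 it was called too (adjusted p = 0.00181). LLC tumor against LLC blood gave -0.42 ± 0.20 (adjusted p = 0.0958), and -0.70 without LLC tumor 1 (adjusted p = 0.000290). Against healthy blood, Tap1 fell in LLC tumor (-0.91 ± 0.20, adjusted p = 0.00294).

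Tap2 encodes the partner subunit of the transporter. Its level was 151, 152 and 156 CPM in healthy blood, 114, 119.9 and 115 CPM in LLC blood and, from LLC tumors, 128, 90.3 and 115 CPM. The blood groups did not overlap, and the tumor libraries spanned the LLC blood range. Tap2 fell in LLC blood (-0.39 ± 0.11, adjusted p = 0.0308) and differed by -0.07 ± 0.11 between LLC tumor and LLC blood (adjusted p = 0.597). Tap1 and Tap2 counts were not whole, but their sum was whole within 0.001 in every library, so these genes shared reads with each other. Their summed level was 477 to 514 CPM in healthy blood, 353 to 366 CPM in LLC blood and 218 to 379 CPM in LLC tumor.

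Tapbp encodes tapasin. Its level was 513, 494 and 455 CPM in healthy blood, 428, 381 and 371 CPM in LLC blood and, from LLC tumors, 347, 217 and 251 CPM. The 3 groups did not overlap, and its counts were not whole in 9 of 9 libraries. LLC blood against healthy blood gave -0.31 ± 0.16 and was not called (adjusted p = 0.187), although the fit of the 6 blood libraries alone called it (-0.32, adjusted p = 0.0112). Tapbp fell in LLC tumor against LLC blood (-0.53 ± 0.16, adjusted p = 0.0151) and against healthy blood (-0.84 ± 0.16, adjusted p = 0.00116).

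Erap1 encodes the aminopeptidase that trims peptides in the endoplasmic reticulum. Its level was 61.0, 68.3 and 70.3 CPM in healthy blood, 85.4, 106.5 and 107.8 CPM in LLC blood and, from LLC tumors, 101.5, 81.7 and 84.0 CPM. Both groups from tumor-bearing mice lay above healthy blood and overlapped each other. Erap1 rose in LLC blood (0.59 ± 0.12, adjusted p = 0.00727), with a call in all 19 alternative settings. It was higher in LLC tumor than in healthy blood (0.42 ± 0.12, adjusted p = 0.0110), and that call was lost with library totals as the scaling (0.24, adjusted p = 0.0559) and without healthy blood 1 (0.35, adjusted p = 0.0539). LLC tumor against LLC blood gave -0.17 ± 0.12 (adjusted p = 0.239).

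Nlrc5 encodes the class I transactivator. Its level was 132, 159.7 and 149.9 CPM in healthy blood, 141, 155 and 155 CPM in LLC blood and, from LLC tumors, 102, 90.7 and 93.4 CPM. The blood groups overlapped, and all tumor libraries lay below all blood libraries. The counts of Nlrc5 and Erap1 were whole numbers in every library. The difference between LLC blood and healthy blood was 0.03 ± 0.09 (adjusted p = 0.844). Nlrc5 fell in LLC tumor against LLC blood (-0.65 ± 0.09, adjusted p = 0.000187) and against healthy blood (-0.62 ± 0.09, adjusted p = 0.000221), with a call in all 19 alternative settings of each. In blood, the heavy chain genes and B2m fell while Nlrc5 was not called, and in LLC tumor against LLC blood Nlrc5 fell while H2-K1 and B2m were not called. Whether their changes differ from that of Nlrc5 was not tested.

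**Figure D3:**
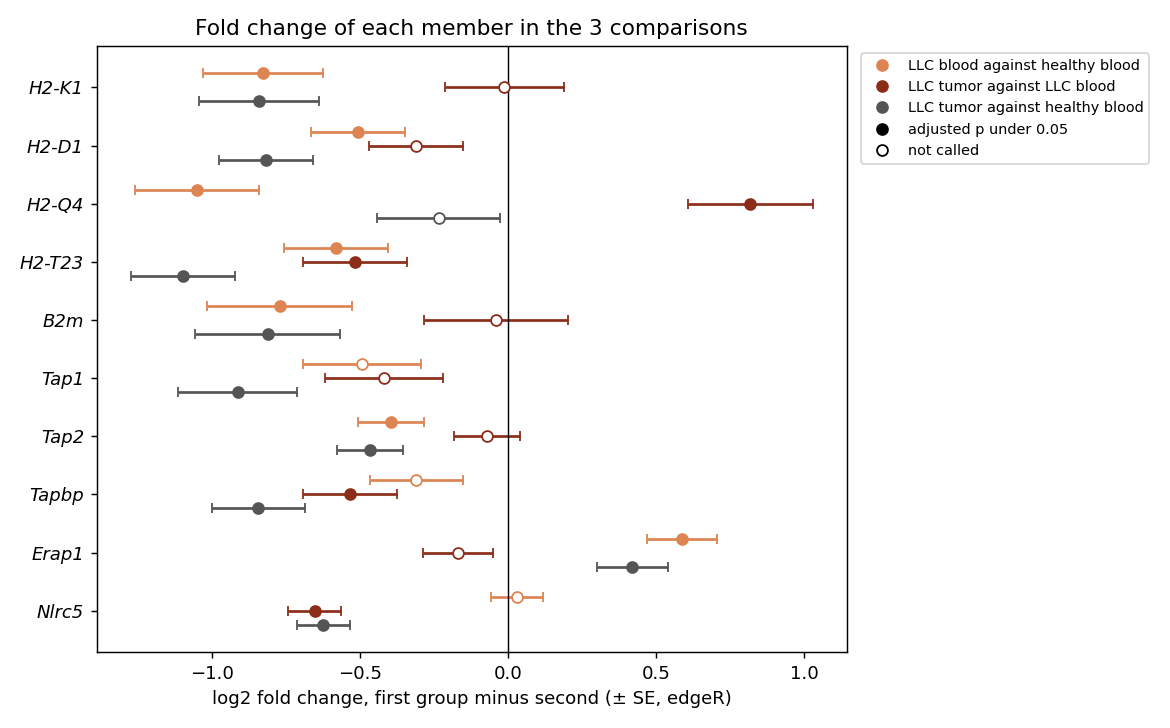
Log2 fold change of each member in the 3 comparisons. The x axis is the edgeR log2 fold change, first group minus second, bars are ± 1 SE of the fit of 9 libraries, and filled points have an adjusted p under 0.05. H2-Q4 is the only member called lower in LLC blood and higher in LLC tumor against LLC blood, and Erap1 is the only member called higher in LLC blood.

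The blood calls depended on which libraries set the spread. All 3 groups shared 1 estimate of the spread in the fit, and the tumor libraries varied more, so that B2m had an SD of 834 CPM in LLC tumor and of 327 and 130 CPM in healthy blood and LLC blood. With the 6 blood libraries alone, 9 members were called in LLC blood against healthy blood, 8 lower and 1 higher, at nearly the same fold changes, while the number of all genes called rose from 2917 to 4889. Leaving out 1 of the 9 libraries at a time gave between 2 members called (without healthy blood 3) and 9 (without LLC tumor 1). H2-D1, H2-T23 and B2m lost their call without any 1 of the 6 blood libraries or without LLC tumor 3. H2-K1 lost its call without healthy blood 3, LLC blood 2 or LLC blood 3, and Tap2 without healthy blood 1 or 3 or any 1 LLC blood library. The direction of all called members was the same in each of these fits.

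In the tumor, H2-T23 lost its call against LLC blood without LLC blood 3, LLC tumor 2 or LLC tumor 3. H2-T23 also lost that call in the fit of only the 6 libraries compared. Tapbp lost its call against LLC blood without LLC tumor 3. B2m lost its call against healthy blood without LLC tumor 3 (-0.69, adjusted p = 0.0556). Without LLC tumor 1, 7 members were called in LLC tumor against LLC blood, 6 of them lower, where 4 and 3 were called with it, and the number of all genes called was 8636 without it and 7566 with it. Scaling mattered here as well: with library totals in place of TMM, which lowered the median of all genes to -0.23, 8 members were called and 7 of them lower, among 7869 genes called in all.

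**Figure D4:**
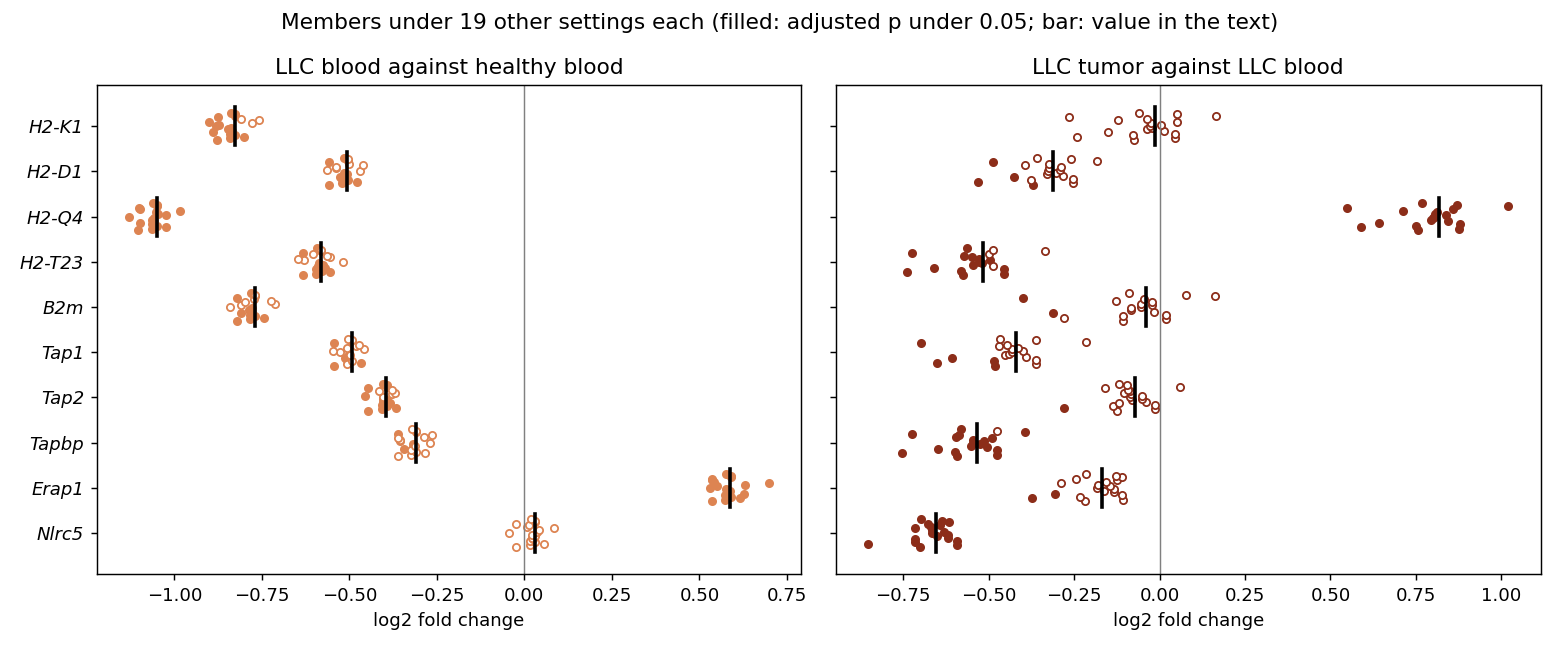
Log2 fold change of each member under 19 alternative settings (other scalings, tools, filters and libraries) in 2 comparisons. The x axis is the log2 fold change, points are settings, filled points have an adjusted p under 0.05, and black bars mark the value given in the text. H2-Q4 and Erap1 are filled throughout in blood, as H2-Q4 and Nlrc5 are in the tumor comparison.

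Markers of other cells moved with the blood comparison. In bulk libraries, fewer cells of a type and less RNA per cell cannot be told apart. All 9 NK cell markers fell in LLC blood, from a summed level of 223 to 518 CPM in healthy blood to 37.4 to 58.9 CPM, and 8 of 8 tested T cell markers fell, from 46.5 to 230 CPM to 4.99 to 8.0 CPM. Macrophage markers fell in 5 of 7 (1216 to 1419 CPM, then 630 to 650 CPM) and dendritic cell markers in 5 of 6 (205 to 229 CPM, then 83.2 to 128 CPM). No marker of these lists was at 0 in either blood group. Of all genes tested, 9.61% were called lower and 14.0% higher in this comparison. In healthy blood 1, 2 and 3 the T cell sum was 46.5, 130 and 230 CPM and the NK cell sum 223, 336 and 518 CPM. The sum of the 4 heavy chain members was 5199, 5181 and 5101 CPM. Over these libraries in that order H2-K1, B2m, Tap1, Tap2 and Erap1 rose, and H2-D1, H2-T23 and Tapbp fell. H2-Q4 and Nlrc5 were highest in healthy blood 2. B cell markers were high in healthy blood 2 (200.3 CPM, against 22.7 and 30.9 CPM in the other healthy libraries). The part of these cells in the members' values was not tested.

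Other markers moved with the tumor comparison. Fibroblast markers summed to 1172, 3471 and 4052 CPM in LLC tumor, to 1.30 and 1.85 CPM in LLC blood 2 and 3, and to 389 CPM in LLC blood 1, and 4 of 6 rose in LLC tumor against LLC blood. Markers of LLC tumor cells summed to 78.9 to 102 CPM in LLC tumor and 3.69 to 6.05 CPM in LLC blood, with Epcam at 0 in LLC blood. Of the 4 tested, 3 rose and 1 fell. Of 7 macrophage markers 6 rose and 1 fell, with a sum of 1477 to 2786 CPM in LLC tumor. Platelet markers rose in 2 of 3 tested (to 143 to 278 CPM). Of 4 endothelial markers tested 3 rose and 1 fell, with a sum of 55.2 to 90.2 CPM, from 16.7 to 19.1 CPM in LLC blood. LLC tumor 1 had the lowest fibroblast and the highest macrophage sum of the tumor libraries. Of the 9 monocyte markers, 6 fell and 2 rose, and of the 8 Ly6C-low monocyte markers 6 fell and 2 rose. In this comparison 31.7% of all genes tested were called lower and 29.6% higher. Erythroid markers fell in 5 of 5 tested (160 to 861 CPM in LLC blood, 1.36 to 3.46 CPM in LLC tumor) and NK cell markers in 7 of 9 (to 7.77 to 21.8 CPM). Of 8 neutrophil markers 3 fell (528 to 876 CPM, then 214 to 360.3 CPM), a share near that of all genes. The part of these cells in the members' values was not tested.

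The counts of the lists from here on stand beside the shares of all genes tested. These were 14.0% higher and 9.61% lower in LLC blood against healthy blood. They were 29.6% higher and 31.7% lower in LLC tumor against LLC blood, and 33.5% and 33.0% in LLC tumor against healthy blood. The other class I heavy chain and class I-like genes moved in both directions. The list held 27 genes, of which 15 passed the filter, and in LLC blood 5 fell and 1 rose, with a median log2 fold change of -0.58. With upper-quartile factors or library totals 8 fell, and with DESeq2 size factors none rose. H2-Q7, a heavy chain gene of the Qa-2 antigen, fell from 102.5 ± 34.8 to 16.9 ± 2.24 CPM (-2.61 ± 0.45, adjusted p = 0.00376). Fcgrt, the heavy chain of the neonatal Fc receptor, which also pairs with beta-2-microglobulin, fell from 72.6 to 33.8 CPM (-1.11 ± 0.17, adjusted p = 0.00207), and H2-K2 fell from 33.4 to 15.3 CPM (-1.13 ± 0.31, adjusted p = 0.0298). Hfe, the class I-like regulator of iron uptake, rose in blood (0.29 ± 0.09, adjusted p = 0.0441). Of the 15, 4 fell and 3 rose in LLC tumor against LLC blood: Hfe fell from 118 to 34.9 CPM (-1.76 ± 0.10, adjusted p = 6.94e-07), H2-T24 from 95.2 to 28.6 CPM (-1.74 ± 0.22, adjusted p = 0.000103), and H2-M3, which presents formylated peptides, from 46.8 to 33.4 CPM (-0.49 ± 0.15, adjusted p = 0.0209). The 3 that rose averaged under 20 CPM: H2-Q5 rose from 10.8 to 28.7 CPM, H2-Q8 from 2.94 to 12.8 CPM and Mr1 from 7.30 to 15.2 CPM. H2-Q5 and H2-Q8 were also among the 5 that fell in LLC blood. Reads of the H2 genes in this list can be divided among copies as for the members.

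The proteasome genes were described by 2 lists. The first held 6 genes, of the immunoproteasome, the interferon-inducible form that favours class I peptides, and of proteasome activators. Of these 6, none was called in LLC blood by edgeR, where 2 were lower at an unadjusted p under 0.05. DESeq2 called 1 lower and limma-voom 5, and edgeR itself called 2 lower with upper-quartile factors or library totals. Their median was -0.34. The tumor comparison with LLC blood gave 3 of 6 that fell, and these were the catalytic subunits: Psmb8 from 233 to 145 CPM (-0.69 ± 0.18, adjusted p = 0.00875), Psmb9 from 82.1 to 45.1 CPM (-0.87 ± 0.18, adjusted p = 0.00263) and Psmb10 from 134 to 75.1 CPM (-0.83 ± 0.16, adjusted p = 0.00124). Against healthy blood 5 of 6 fell in LLC tumor. Of the 3 constitutive counterparts, none was called in LLC blood by edgeR, DESeq2 or limma-voom or at an unadjusted p under 0.05. In LLC tumor 1 of the 3, Psmb7, rose against LLC blood (0.31 ± 0.11, adjusted p = 0.0389), and its call depended on the scaling, since with library totals no gene of this list was called higher and 1 was called lower.

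Partners of the loading complex and of the glycoprotein quality control that serves it formed the next list. In LLC blood 2 of 9 rose and none fell, while under each of the 3 other scalings 1 rose. Uggt1, which tags misfolded glycoproteins and re-glucosylates class I, rose from 184 to 286 CPM (0.64 ± 0.10, adjusted p = 0.00241) and Ganab, a glucosidase subunit, from 191 to 225 CPM (0.24 ± 0.07, adjusted p = 0.0399). No gene of the list fell at an unadjusted p under 0.05 or by DESeq2 or limma-voom. Of the 9, 4 rose and 2 fell in LLC tumor against LLC blood, with a median of 0.38, and the 3 other scalings gave 3 to 7 higher and medians of 0.17 to 0.44. The general chaperone Hspa5 rose from 496 ± 29.6 to 1742 ± 550 CPM (1.81 ± 0.21, adjusted p = 6.11e-05) and the disulfide isomerase Pdia4 from 80.5 to 224.6 CPM (1.48 ± 0.12, adjusted p = 7.57e-06). Tapbpl, which encodes the peptide editor TAPBPR, fell from 41.98 to 22.5 CPM (-0.90 ± 0.10, adjusted p = 4.75e-05).

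Peptide trimming genes other than Erap1 were called in 1 direction in blood. In LLC blood 4 of 8 rose and none fell, with a median of 0.27. None was lower at an unadjusted p under 0.05 or by DESeq2 or limma-voom. Lnpep, the insulin-regulated aminopeptidase that trims peptides in endosomes, rose from 44.9 ± 4.12 to 235 ± 42.9 CPM (2.39 ± 0.15, adjusted p = 2.30e-05). Tpp2, Nrdc (listed as Nrd1) and Dpp3 rose by 0.30, 0.29 and 0.22 on the log2 scale (adjusted p = 0.0118, 0.0176 and 0.0263). Compared with LLC blood, 3 of 8 rose and 2 fell in LLC tumor, a share near that of all genes called there (61.3%). The cytosolic aminopeptidase Npepps rose from 65.9 to 231 CPM (1.81 ± 0.10, adjusted p = 6.76e-07), Nrdc rose by 0.23 ± 0.07 (adjusted p = 0.0179), and Blmh fell from 57.6 to 39.3 CPM (-0.55 ± 0.10, adjusted p = 0.000999). The median of this list in that comparison was 0.16 with TMM and -0.04 with library totals.

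Regulators of class I genes and interferon-gamma signalling genes gave few calls in blood by edgeR. Of 25 genes, 2 fell, 1 rose and 22 were not called in LLC blood, with a median of -0.19. At an unadjusted p under 0.05 7 were lower, limma-voom called 11 lower and 4 higher, DESeq2 called 6 lower and 1 higher, and edgeR called 7 lower with upper-quartile factors and 6 lower with library totals. Socs3, an inhibitor of cytokine receptor signalling, rose from 95.4 to 228 CPM (1.26 ± 0.16, adjusted p = 0.000779), and Rela, a subunit of NF-kB, fell by 0.27 on the log2 scale (adjusted p = 0.0409). Of the 25, 11 fell and 9 rose in LLC tumor against LLC blood. The kinase Jak2 rose from 137 to 326 CPM (1.25 ± 0.12, adjusted p = 1.94e-05) and Socs3 rose again, from 228 to 645 CPM (1.497 ± 0.16, adjusted p = 3.35e-05).

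Class II presentation genes were detected, although the sort selected cells negative for MHC-II on the surface. In LLC blood 5 of 10 fell and none rose, with a median of -1.17. By DESeq2 6 were lower and none higher, by limma-voom 7 were lower and 1 higher, and at an unadjusted p under 0.05 8 were lower and 1 higher. Cd74, the invariant chain, fell from 864 ± 153 to 373 ± 71.4 CPM (-1.21 ± 0.26, adjusted p = 0.0102), H2-Aa from 178 ± 67.3 to 51.4 ± 19.2 CPM (-1.80 ± 0.45, adjusted p = 0.0188), H2-Ab1 from 159.9 to 65.4 CPM (-1.29 ± 0.33, adjusted p = 0.0195) and H2-Eb1 from 65.9 to 18.0 CPM (-1.88 ± 0.56, adjusted p = 0.0391). Class II genes are also expressed by B cells and dendritic cells, whose marker values are given above. Of the 10, 3 fell and none rose in LLC tumor against LLC blood, a share near that of all genes called lower there (31.7%). Among the 3 was Ciita, the class II counterpart of Nlrc5, which fell from 43.1 to 10.07 CPM (-2.10 ± 0.23, adjusted p = 4.14e-05). H2-DMa and H2-DMb1, which load class II molecules, fell by 0.78 and 0.63 on the log2 scale (adjusted p = 0.00553 and 0.0103).

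Genes linked to cross-presentation, the route by which outside antigens reach class I, gave 3 genes higher and 1 lower of 9 in LLC blood. Wdfy4 rose from 179 to 319 CPM (0.83 ± 0.08, adjusted p = 0.000219), Ifi30, a lysosomal thiol reductase, from 531 to 787 CPM (0.57 ± 0.12, adjusted p = 0.0104) and Rab27a from 80.1 to 113 CPM (0.49 ± 0.10, adjusted p = 0.00748), while Stx4a fell from 104 to 74.0 CPM (-0.49 ± 0.11, adjusted p = 0.0122). Compared with LLC blood, 6 of 9 fell and 1 rose in LLC tumor, with a median of -0.69. Cybb, the oxidase subunit that keeps phagosomes from acidifying, fell from 2238 to 673 CPM (-1.73 ± 0.16, adjusted p = 1.54e-05), Rab27a from 113 to 36.1 CPM (-1.64 ± 0.10, adjusted p = 1.56e-06) and Rab43 from 239 to 119 CPM (-1.01 ± 0.11, adjusted p = 5.56e-05).

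Class I receptors and inhibitory or class I-like ligands of myeloid cells formed the last list, with 6 genes tested. In LLC blood 2 rose and none fell at the adjusted threshold, at an unadjusted p under 0.05 or by DESeq2, while limma-voom called 1 lower. The 2 that rose were barely detected, with means of 0.12 and 0.35 CPM in healthy blood and 3.3 and 1.8 CPM in LLC blood. The other 4 were not called by edgeR. Of the 6, 3 rose and 1 fell in LLC tumor against LLC blood. Cd274, which encodes the inhibitory ligand PD-L1, rose from 17.0 ± 2.04 to 398 ± 112 CPM (4.56 ± 0.24, adjusted p = 5.85e-07), and Lilrb4a, an inhibitory receptor, from 408 to 1493 CPM (1.87 ± 0.11, adjusted p = 1.22e-06). Pirb, an inhibitory receptor for class I molecules, fell from 916 to 718 CPM (-0.35 ± 0.11, adjusted p = 0.0223).

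**Figure D5:**
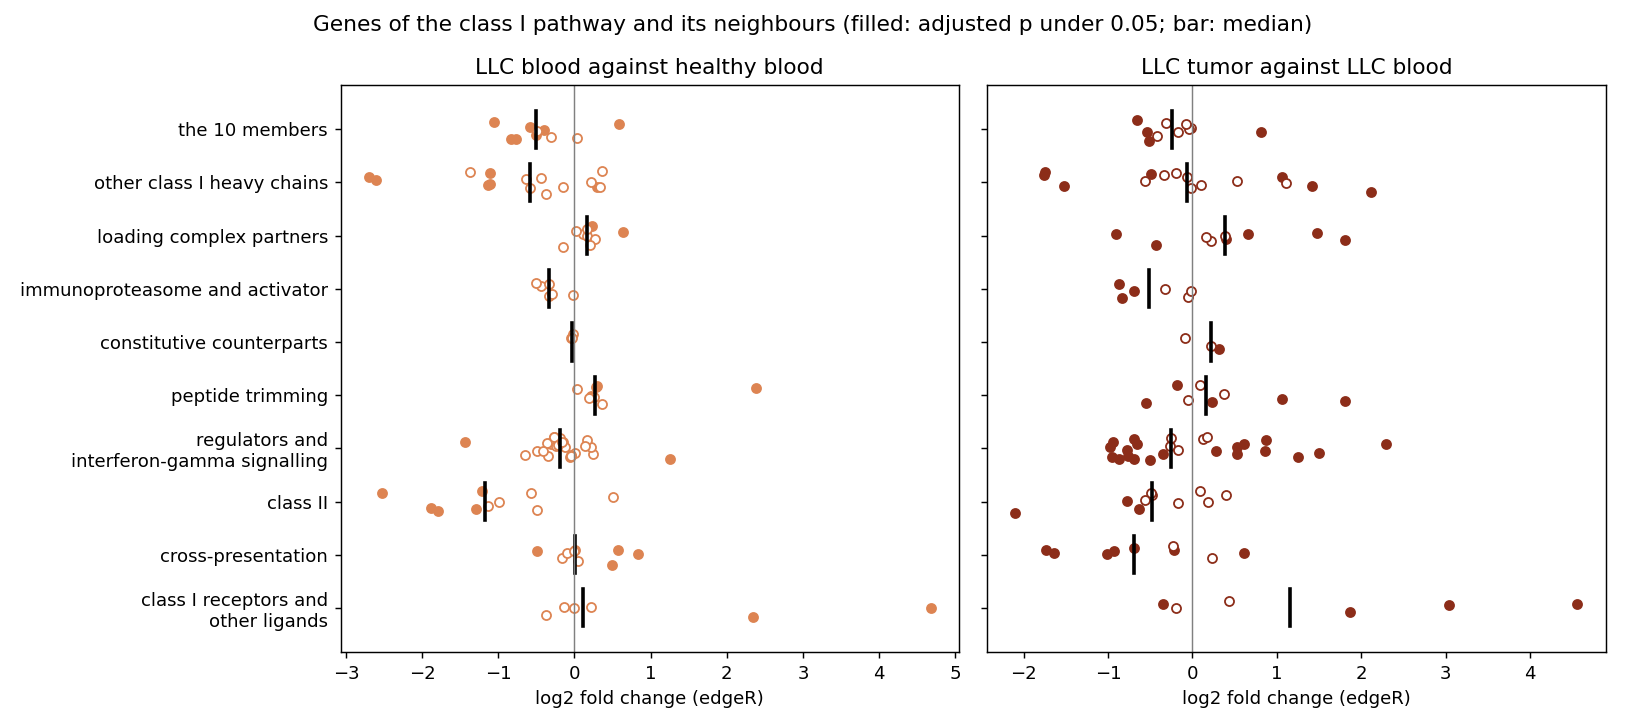
Log2 fold changes of the 10 members and of 9 lists of related genes in 2 comparisons. The x axis is the edgeR log2 fold change, each point is 1 tested gene, filled points have an adjusted p under 0.05, and black bars are list medians. In blood the medians of the members, the other heavy chains, the immunoproteasome, the regulators and class II lie below 0. Those of the loading partners, the trimming genes and the class I receptors lie above it. Those of the constitutive counterparts (-0.03) and of cross-presentation (0.004) lie near it.

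The members did not follow their common profile equally. Likeness was measured as the root mean square difference, over 9 libraries, of mean-centred log2(CPM + 1) from the mean of the members, where 0 is an identical profile. H2-D1 (0.10) and Tap2 (0.11) lay nearest to the common profile, followed by Tap1 (0.15) and Tapbp (0.16), while H2-Q4 (0.41) and Erap1 (0.51) lay farthest. Of the 6903 other genes that averaged 20 CPM or more, the 5 nearest to the common profile were Tmem219 (0.047), H3f3a (0.053), Supt4a (0.068), Irf2 (0.071) and Siah2 (0.073). Irf2 encodes an interferon regulatory factor, and its level was 157 CPM in healthy blood, 123 CPM in LLC blood and 102 CPM in LLC tumor. By edgeR it was not called in LLC blood against healthy blood (adjusted p = 0.0799) or in LLC tumor against LLC blood (adjusted p = 0.102). It fell in LLC tumor against healthy blood (adjusted p = 0.00229). The 5 nearest to Nlrc5 were Mina (0.057), Ccnc (0.062), Gmfb (0.064), Chsy1 (0.069) and Fgfr1op2 (0.070). The 9 libraries fall into 3 groups, so likeness here rests mainly on 3 group levels.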

How the data were processed

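RNA-seq of 9 libraries (3 groups of 3, grouped by their titles) was analysed. The authors deposited a table of estimated counts per gene (expected counts, not normalised; counts that were not whole made up 8.56% to 9.73% of values per library) and a CPM table (scaled by the authors to the column totals) for 10693 genes. The submitters' processing notes name Trim Galore 0.6.7, cutadapt 3.4, STAR 2.6.1d, Salmon 1.9.0, edgeR and mm10, without saying which step used which. Whole reads recovered from the CPM table were whole for 100% of values (tolerance 0.05) and equalled the rounded counts.

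Counts were rounded and fitted with edgeR 4.0.16 (R 4.3.3) in 1 quasi-likelihood model of 9 libraries with group as the only term, TMM factors and filterByExpr (12337 of 18544 genes with a count), in 3 comparisons. P-values were Benjamini-Hochberg adjusted over all genes tested, with calls at an adjusted p under 0.05. DESeq2 1.42.0, limma-voom (limma 3.58.1), other scalings, filters, thresholds, a replicate block and leaving out each library were alternatives. The edgeR fit was tested on simulated counts in LLC blood against healthy blood only, and the other steps were not tested in this way. Depth was 10457492 to 20706412 counts per library. Counting error is small at these depths, and 3 libraries a group limit the precision.

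All 10 members are named. From each related list, at most 4 genes (blood) and 3 genes (tumor against LLC blood) with the largest absolute log2 fold change among those called with a mean of at least 20 CPM were named, and the 5 nearest genes by likeness. The 3 genes of the heavy chain list that rose in LLC tumor against LLC blood are named although they averaged under 20 CPM. The members and lists were chosen with earlier results of these data known. H2-D2 of the heavy chain list and the neutrophil marker Ly6g were not used here. A gene that the naming rule would give is not reported here.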

Additional observations from a re-analysis of the deposited data

How the results depend on the processing

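Each member was refitted under 19 alternatives in 3 comparisons. Of these 570 results, 489 kept direction and side of the threshold, 37 lost the call, 29 gained it and 15 changed sign. The sign changes were all in values that were not called. Nlrc5 in LLC blood against healthy blood was -0.0230 with upper-quartile factors and ranged from -0.0439 (without healthy blood 1) to 0.0841 (without LLC blood 1) over the fits that left out 1 library. In LLC tumor against LLC blood, H2-K1 was 0.0452 with DESeq2 size factors in edgeR and also 0.0452 by DESeq2, 0.0129 with the 6 libraries alone, and -0.266 (without LLC tumor 1) to 0.166 (without LLC tumor 2) over the fits that left out 1 library. B2m was 0.0179 with DESeq2 size factors in edgeR and also 0.0179 by DESeq2, and -0.400 (without LLC tumor 1) to 0.162 (without LLC tumor 2). Tap2 ranged from -0.159 (without LLC tumor 1) to 0.0585 (without LLC tumor 2). The cause was not tested.

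In LLC blood against healthy blood, leaving out 1 library at a time gave 2 to 9 members called, 1 to 8 of them lower (lowest without healthy blood 3, highest without LLC tumor 1), and 1494 (without LLC blood 2) to 5064 genes called (without LLC tumor 1), against 2917. The count over all genes was 5884 with limma-voom and 4889 with the 6 libraries alone. At an adjusted p under 0.01 it was 1386, with 2 members called and 1 lower. With a log2 fold change of 1 or more in size it was 769, with 1 member called, 0 higher and 1 lower. The medians over the members ranged from -0.56 to -0.47.

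In LLC tumor against LLC blood, leaving out 1 library gave 2 (without LLC tumor 3) to 7 members called (without LLC tumor 1), 1 to 6 of them lower, with 6895 to 8636 genes called and medians of -0.44 to -0.15. Upper-quartile factors gave 5 lower. Library totals and limma-voom each gave 8 called and 7 lower. An adjusted p under 0.01 left 2 called and 1 lower, and a log2 fold change of at least 1 left 0 called, 0 higher and 0 lower, with 3538 genes called. In LLC tumor against healthy blood, 8 to 10 members were called without 1 library, 0 to 1 of them higher, with 7571 to 9423 genes called and medians of -1.06 to -0.63. None (0) was higher with library totals or at an adjusted p under 0.01, and a log2 fold change of at least 1 left 1 called, 0 higher and 1 lower, with 3989 genes called.

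Among called genes in LLC blood, 46.3% were higher with upper-quartile factors and 59.4% with TMM. In LLC tumor against LLC blood 36.3% were higher with library totals and 48.3% with TMM, and library totals moved the median of all genes to -0.23 there and to -0.17 against healthy blood.

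With the replicate number as a block in the fit of 9 libraries, 7, 4 and 9 members were called in the 3 comparisons, as without it. The block in the 6 libraries compared gave 9, 4 and 9 members called and 4820 genes in LLC blood against healthy blood. Same-numbered libraries correlated between -0.11 and 0.30 in their deviations from the group means, and not every library matched its own number best, so the numbers were not taken to pair the libraries. Neither fit with the block changed the direction of a member. Reads recovered from the CPM table, an alternative chosen after seeing the data, gave 7, 4 and 9 members called. At this depth the members' counts (705 to 64947 per library) are limited by the spread between libraries.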

Other observations

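Further levels within the pathway were computed. H2-D1 made up 63.8% ± 2.81 (SD, n = 3) of the summed CPM of H2-K1 and H2-D1 in healthy blood, 68.8% ± 1.04 in LLC blood and 64.5% ± 1.93 in LLC tumor. The LLC blood libraries (67.6%, 69.6% and 69.1%) lay above the healthy ones (66.7%, 63.5% and 61.1%) and the tumor ones (62.5%, 66.3% and 64.5%). Tap1 made up 69.0% ± 0.65 of the summed CPM of Tap1 and Tap2 in healthy blood, 67.6% ± 1.12 in LLC blood and 61.4% ± 4.27 in LLC tumor, where LLC tumor 1 had 66.3% and the others 58.5% and 59.3%. These shares do not depend on the scaling of a library, they rest on counts divided between similar genes, and they were not tested.

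The summed level of 25 H2 class I heavy chain genes, which does not depend on how reads are divided among these 25 but whose counts were still up to 0.461 from a whole number, was 5672, 5743 and 5652 CPM in healthy blood, 3939, 3409 and 3673 CPM in LLC blood, and 4161, 2443 and 2932 CPM in LLC tumor. All 3 LLC blood libraries lay below all healthy ones, and the tumor libraries spanned the LLC blood range.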
